A study of Rattus norvegicus with 12 samples.

Results

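The genes described here are 9 negative regulators and early-response genes of the Ras-ERK pathway: the Sprouty genes Spry1, Spry2 and Spry4, the Sprouty-related gene Spred1, the dual-specificity phosphatase genes Dusp1, Dusp4, Dusp5 and Dusp6, and Ier5. They were taken by gene symbol from a table of read counts with 17337 rows, in which all 9 were found. All 9 were among the 12850 genes that passed the filter on low counts. RNA had been sequenced from brain, called middle brain in the series text, of male Sprague-Dawley rats at postnatal day 60, in 4 groups of 3 libraries. Sham-operated rats were the controls. The other 3 groups had all undergone bile duct ligation (BDL), labelled as 4 weeks, an operation that blocks the flow of bile, scars the liver and is used to model hepatic encephalopathy. One ligated group had no vector. The second received an adeno-associated virus with the gene of green fluorescent protein (AAV-GFP) and the third a virus with that of the lymphatic growth factor VEGFC (AAV-VEGFC), each as 20 µl injected into the cisterna magna. The serotype and promoter of the vectors, the time of injection relative to ligation, the hour of tissue collection and any injection in the sham or vector-free rats are not stated in the labels.

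Growth factor receptors switch on Ras, which activates the kinases Raf, MEK and ERK in turn. Active ERK raises the transcription of its own inhibitors, so the RNA of these genes is widely read as a trace of recent ERK signalling. Sprouty and Spred proteins act upstream, between receptor and Raf, and Spred1 brings the Ras-inactivating protein neurofibromin to the membrane. The dual-specificity phosphatases remove the activating phosphates from the kinases themselves: Dusp6 from ERK in the cytoplasm, Dusp5 from ERK in the nucleus, and Dusp1 and Dusp4 from ERK, JNK and p38. Ier5 is an immediate early gene whose protein binds the phosphatase PP2A and the heat-shock factor HSF1. In brain several of these genes are induced within minutes of neuronal firing, growth factor or stress hormone exposure.

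The sequence just upstream of each start site was compared between members. RefSeq (build GRCr8) gave windows for 8 of the 9 members, all but Dusp4, with 2 windows for Spry2, and the 250 bases before each start site were searched on both strands. Dusp1, Dusp5 and Ier5 are shown because each held a match that no other member's window had and because their levels followed different orders over the groups. Capitals mark the cyclic AMP response element and its half-sites in Dusp1, a pair of adjoining CArG boxes (the binding sequence of serum response factor) in Dusp5, and a TATA box in Ier5.
Dusp1, chr10:17184603-17184852, plus strand: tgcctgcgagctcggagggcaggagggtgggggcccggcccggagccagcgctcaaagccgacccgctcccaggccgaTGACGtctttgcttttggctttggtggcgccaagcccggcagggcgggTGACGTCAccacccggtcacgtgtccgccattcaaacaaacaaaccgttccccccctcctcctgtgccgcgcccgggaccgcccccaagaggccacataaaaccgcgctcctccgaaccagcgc
Dusp5, chr1:262543524-262543773, plus strand: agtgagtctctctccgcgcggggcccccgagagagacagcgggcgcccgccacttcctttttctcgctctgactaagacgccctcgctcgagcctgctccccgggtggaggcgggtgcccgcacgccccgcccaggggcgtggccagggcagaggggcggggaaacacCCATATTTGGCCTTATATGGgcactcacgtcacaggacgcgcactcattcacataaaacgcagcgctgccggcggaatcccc
Ier5, chr13:69822543-69822792, minus strand: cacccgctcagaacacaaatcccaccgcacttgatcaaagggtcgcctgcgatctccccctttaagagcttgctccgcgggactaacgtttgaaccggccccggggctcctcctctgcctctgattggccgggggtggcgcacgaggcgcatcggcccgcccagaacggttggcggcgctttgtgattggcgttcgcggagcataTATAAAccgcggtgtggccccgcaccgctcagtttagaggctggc
The full element TGACGTCA lay in the Dusp1 window, from 124 to 117 bases before the start site, and in no other member's window, against 1.59% of all 33469 windows. Its half-site TGACG, which the full element contains, was in 3 of the 9 member windows (Dusp1, Dusp5 and 1 of the Spry2 windows), against 18.2% of all windows. CArG boxes were in the Dusp5 window only, from 82 to 63 bases before the start, against 1.5% of all windows. The Egr motif GCGNGGGCG was in the Dusp5 window and both Spry2 windows, against 4.29% of all. TATAAA was in the Ier5 window only, against 12.9%. The AP-1 motif TGANTCA (6.34% of all windows) and the ETS motif CCGGAAGT (3.1%) were in none of the 9. These are matches of letters and do not show that a factor bound.

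Library totals ranged from 40296297 to 51669067 counts. Values below are CPM, read counts relative to the library total after scaling by TMM, a method that aligns the bulk of genes between libraries, and are levels. Differences are log2 fold changes ± SE from the edgeR quasi-likelihood test of all 12 libraries, with p adjusted over all genes by Benjamini-Hochberg, and a gene passed at an adjusted p under 0.05. Some libraries stood apart in their markers. Sham 2 held choroid plexus markers at a summed 285 CPM, AAV-GFP 1 held those of hypothalamus and pituitary at 86.5 CPM and AAV-VEGFC 3 at 58.8 CPM. AAV-VEGFC 1 had the fewest neuron (4859 CPM) and the most oligodendrocyte (18412 CPM) and astrocyte (7135 CPM) transcripts. Fits without sham 2, AAV-GFP 1 and AAV-VEGFC 1 together, and without each library in turn, are given where they differ. The 7 monoamine neuron markers of midbrain found in the table, of which Slc6a3, Fev and En2 were at 0 in some library, summed to only 6.04 to 11.2 CPM, so they gave little sign of that region. In such bulk tissue fewer cells of a type and less RNA per cell cannot be told apart.

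**Figure D1:**
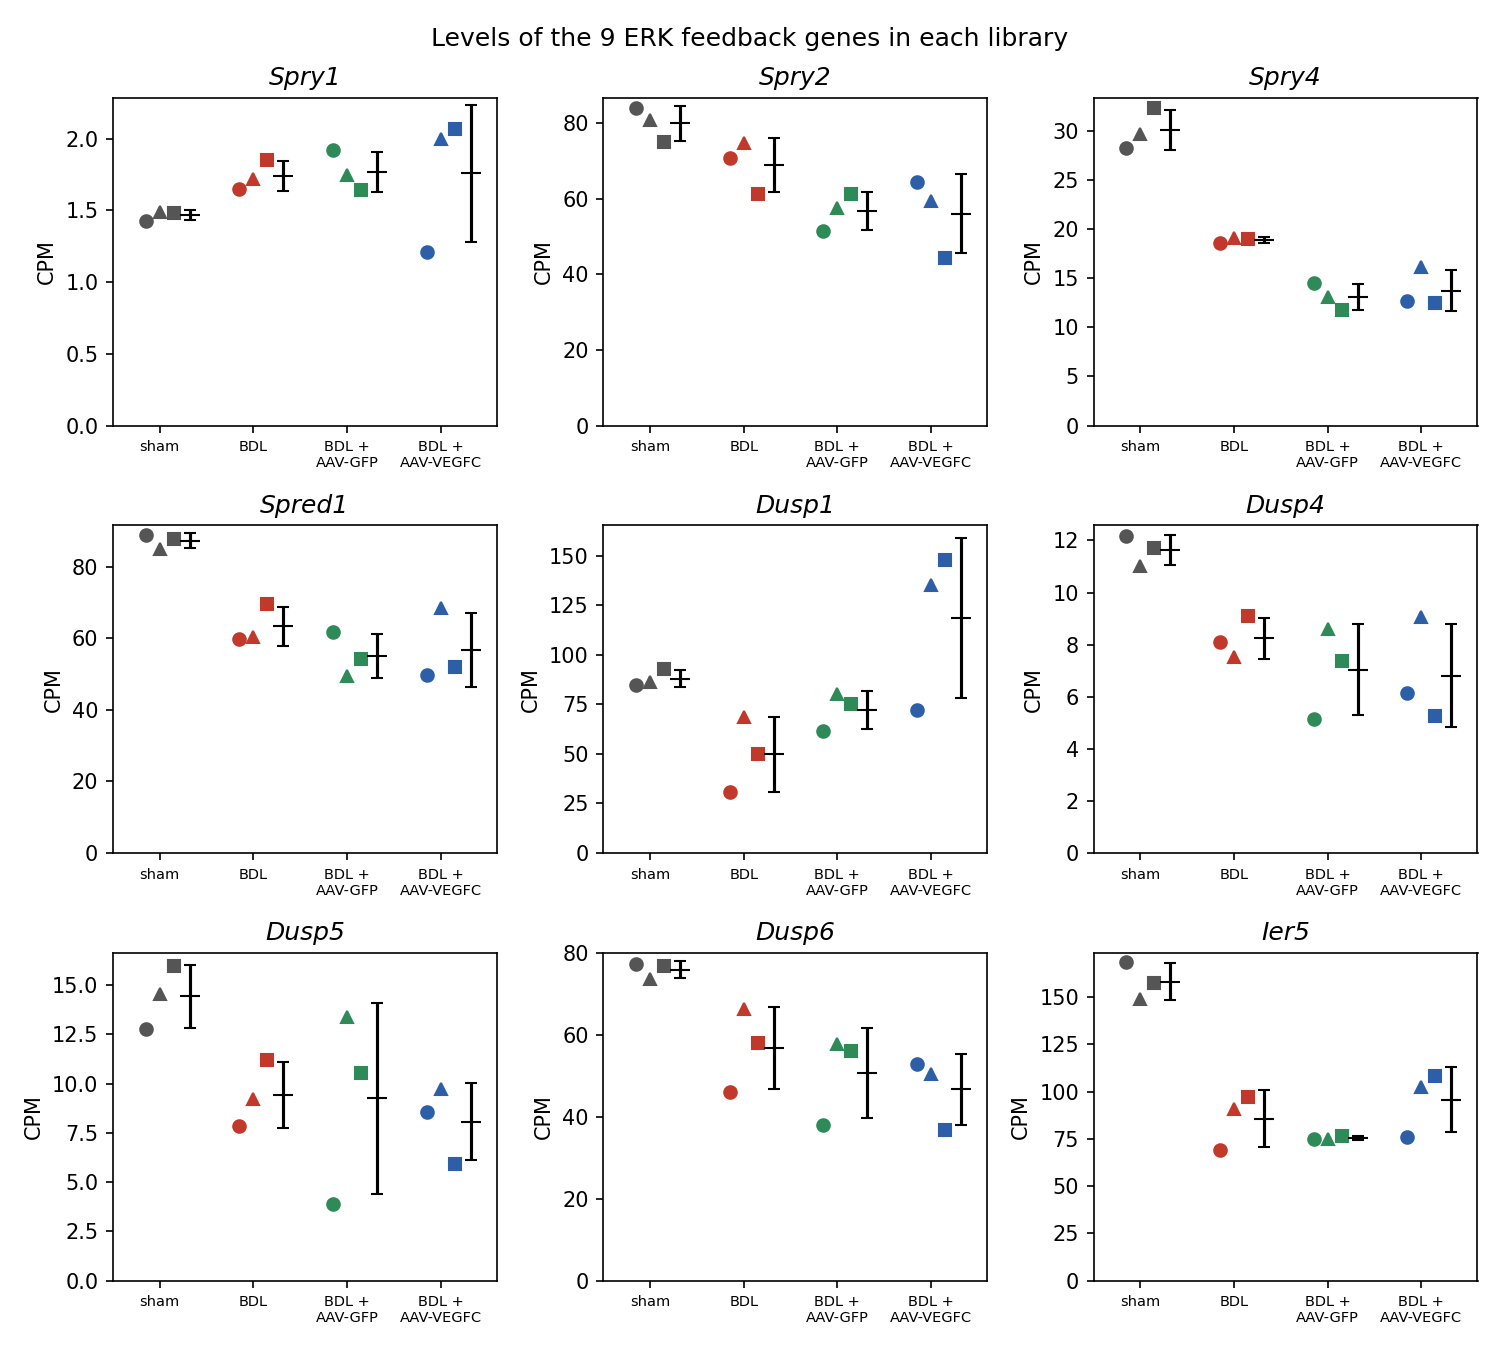
Level of each gene (CPM, y axis, from 0) in every library of the 4 groups (x axis). Circles, triangles and squares are replicates 1, 2 and 3, which are not paired across groups, and the black bar is the mean ± SD of 3 libraries. Spry4 steps down from sham (30.1 CPM) through BDL (18.9 CPM) to the vector groups, while Dusp1 is highest with AAV-VEGFC (118 CPM).

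Most of the members were highest in sham rats. In 6 of the 9 (Spry2, Spry4, Spred1, Dusp4, Dusp6 and Ier5) all 3 sham libraries lay above all 9 ligated libraries, an arrangement held by 4.62% of tested genes. The reverse, sham below all ligated libraries, was held by 0 of the 9 and by 5.05% of tested genes. For Spry2 that separation was narrow, 74.9 CPM in the lowest sham library against 74.8 CPM in BDL 2. For Spry4 it was wide, 28.3 against 19.1 CPM. The exceptions were Spry1, Dusp1 and Dusp5. Because the members were chosen with earlier results of these data known, setting them beside the shares of all genes is a description and not an independent test.

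Spry4, an inhibitor of receptor signalling to Ras, had the most regular pattern. It was 28.3, 29.7 and 32.3 CPM in the sham libraries, 18.6, 19.1 and 18.99 in BDL, 14.5, 13.1 and 11.8 with AAV-GFP, and 12.7, 16.1 and 12.4 with AAV-VEGFC. Sham, vector-free BDL and the vector libraries thus formed 3 tiers with no overlap, and the vector groups overlapped each other. The order of means was sham (30.1 ± 2.03 CPM, SD, n = 3), BDL (18.9 ± 0.292), AAV-VEGFC (13.7 ± 2.06) and AAV-GFP (13.1 ± 1.33).

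Spry2, the broadly expressed Sprouty of brain, was 84.0, 80.9 and 74.9 CPM in sham, 70.7, 74.8 and 61.1 in BDL, 51.4, 57.6 and 61.3 with AAV-GFP, and 64.5, 59.3 and 44.3 with AAV-VEGFC. Each ligated group overlapped the other ligated groups. Spred1 was 89.0, 84.9 and 87.9 CPM in sham, 59.8, 60.5 and 69.7 in BDL, 61.8, 49.4 and 54.1 with AAV-GFP, and 49.7, 68.5 and 51.9 with AAV-VEGFC. Its 9 ligated libraries formed 1 overlapping range below sham. Spry1 was covered by only 48 to 100 reads per library and went the other way. It was 1.43, 1.49 and 1.48 CPM in sham, 1.65, 1.72 and 1.85 in BDL, 1.92, 1.75 and 1.64 with AAV-GFP, and 1.21, 1.995 and 2.07 with AAV-VEGFC, where replicate 1 was the lowest of all 12 libraries.

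Among the phosphatases, Dusp6, the cytoplasmic ERK phosphatase, was 77.4, 73.6 and 76.9 CPM in sham and 46.2, 66.3 and 58.1 in BDL. With AAV-GFP it was 38.1, 57.9 and 56.2 CPM and with AAV-VEGFC 53.0, 50.4 and 36.8. The sham libraries lay close together, and AAV-GFP 1 and AAV-VEGFC 3 were the lowest libraries. Dusp4, a nuclear phosphatase, was 12.2, 11.01 and 11.7 CPM in sham, 8.11, 7.52 and 9.08 in BDL, 5.15, 8.58 and 7.38 with AAV-GFP, and 6.13, 9.06 and 5.25 with AAV-VEGFC. Dusp5, the nuclear phosphatase of ERK, was 12.8, 14.6 and 16.0 CPM in sham, 7.85, 9.25 and 11.2 in BDL, 3.88, 13.4 and 10.5 with AAV-GFP, and 8.55, 9.74 and 5.91 with AAV-VEGFC. Again AAV-GFP 1 and AAV-VEGFC 3 were lowest for both genes, and Dusp5 in AAV-GFP 2 reached the sham range. These are the 2 libraries with the most hypothalamus and pituitary markers (86.5 and 58.8 CPM, against 3.13 to 13.4 CPM in the other 4 vector libraries), and the part of those cells in the Dusp levels was not tested. Without AAV-GFP 1 the log2 fold change of AAV-GFP against BDL went from -0.03 to 0.33 for Dusp5 and from -0.23 to -0.05 for Dusp4. Without AAV-VEGFC 3 that of AAV-VEGFC against BDL went from -0.22 to -0.04 for Dusp5 and from -0.27 to -0.11 for Dusp4. None of these 4 differences passed the test described above, with or without the library.

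Dusp1, which acts on ERK, JNK and p38 and is itself a target of the glucocorticoid receptor, did not follow the other phosphatases. It was 84.6, 86.3 and 93.0 CPM in sham, 30.6, 68.7 and 49.7 in BDL, 61.3, 80.1 and 75.0 with AAV-GFP, and 72.3, 135 and 148 with AAV-VEGFC. All BDL libraries were below sham, and AAV-VEGFC 2 and 3 were the highest of all 12 while AAV-VEGFC 1 lay in the AAV-GFP range. Ier5 was 168, 149 and 157 CPM in sham, 68.9, 91.0 and 97.3 in BDL, 74.7, 74.7 and 76.7 with AAV-GFP, and 76.1, 102 and 108 with AAV-VEGFC. The 3 AAV-GFP libraries were nearly equal, and AAV-VEGFC 2 and 3 were again the higher ones of their group.

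**Figure D2:**
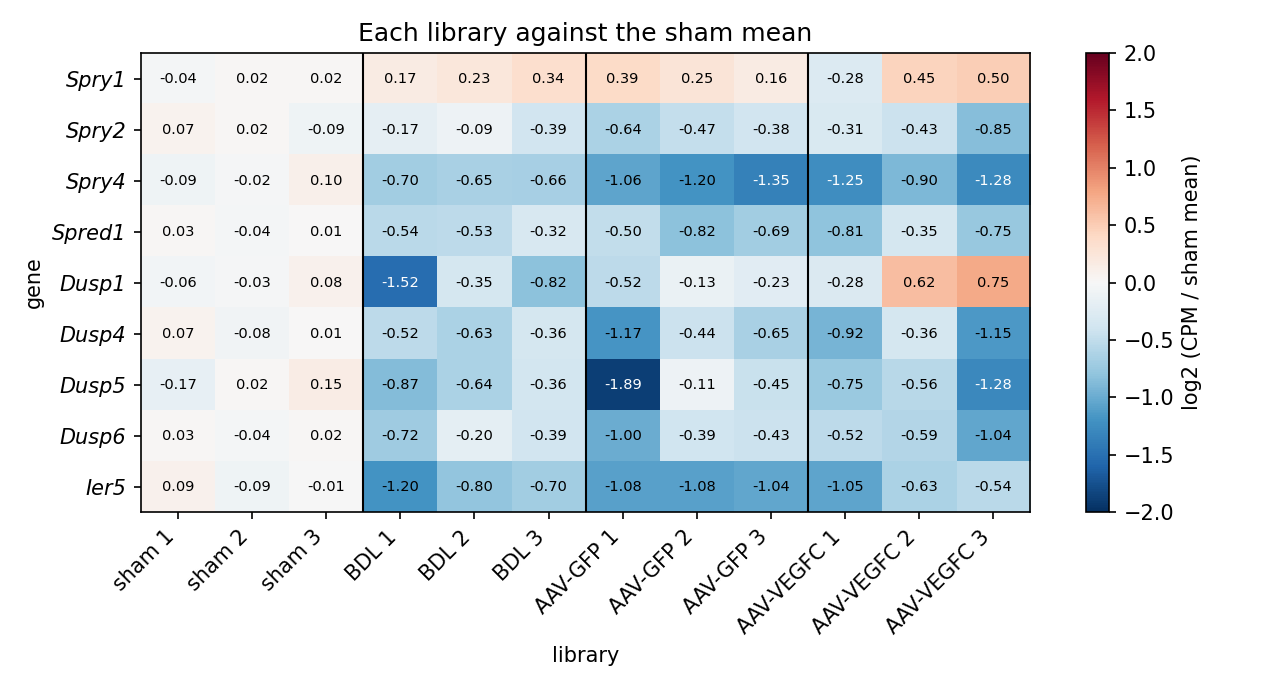
Log2 ratio of each library's CPM to the mean of the 3 sham libraries (colour, with the value printed in each cell) for the 9 genes (rows) in the 12 libraries (columns, groups parted by lines). Blue cells, below the sham mean, fill most of the ligated columns. Spry1 in 8 of 9 ligated libraries and Dusp1 in AAV-VEGFC 2 (0.62) and 3 (0.75) are the red ones.

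The comparison of vector-free BDL with sham asked what ligation did without a vector. Of the 9 members 8, all but Spry1, had a log2 fold change below 0, as did 47.5% of all genes, with Ier5 (-0.88 ± 0.14, adjusted p = 0.0535) and Spry4 (-0.67 ± 0.11, adjusted p = 0.0644) nearest to the threshold. By edgeR 0 of the 9 passed, in a comparison where 0.109% of all genes did (0.0934% higher and 0.0156% lower). At an unadjusted p under 0.05 there were 6 of 9, against 5.9% of all genes, and the groups did not overlap for 8 lower members and 1 higher, against 12.4% and 12.6% of all genes (25% in either direction). The median log2 fold change of the members was -0.50 and that of all genes 0.01. Other values were -0.82 ± 0.29 for Dusp1, -0.61 ± 0.35 for Dusp5, -0.50 ± 0.21 for Dusp4, -0.46 ± 0.12 for Spred1, -0.42 ± 0.18 for Dusp6, -0.21 ± 0.13 for Spry2 and 0.25 ± 0.23 for Spry1 (adjusted p from 0.372 to 1). Other fits gave other counts, of members and of all genes alike, and the cause was not tested. DESeq2 gave 2 members (Spry4 and Ier5) among 108 genes, and edgeR without sham 2, AAV-GFP 1 and AAV-VEGFC 1 the same 2 among 209. Limma voom gave 4 (Spry4, Spred1, Dusp1 and Ier5) among 347 genes, edgeR on the 6 sham and BDL libraries alone 4 (Spry4, Spred1, Dusp4 and Ier5) among 332, and edgeR with no filter 1 (Ier5) among 15, against 14 genes in the fit of all 12 libraries.

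The comparison of AAV-GFP with vector-free BDL addressed the vector and its injection together. Spry4 fell further, by 0.53 ± 0.11 on the log2 scale (adjusted p = 0.0192), with all 3 AAV-GFP libraries below all 3 BDL libraries. It was the 1 member of 9 that passed, where 6.19% of all genes did (0.988% higher, 5.2% lower). The groups overlapped for the other 8, while they did not for 38.1% of all genes (18.2% higher, 20% lower). Their values ran from -0.28 ± 0.13 for Spry2 to 0.54 ± 0.29 for Dusp1 (adjusted p from 0.257 to 0.978), and the median of the 9 was -0.19, against 0.01 for all genes. The Spry4 call was lost without any 1 BDL library or without AAV-GFP 2 or AAV-GFP 3, with adjusted p from 0.0637 to 0.0913 and the log2 fold change between -0.54 and -0.45.

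AAV-VEGFC against vector-free BDL gave the one rise among the members. Dusp1 rose from 49.7 ± 19.1 to 118 ± 40.4 CPM (1.25 ± 0.29, adjusted p = 0.0203), with the lowest AAV-VEGFC library (72.3 CPM) just above the highest BDL library (68.7 CPM). Spry4 fell, by 0.46 ± 0.11 on the log2 scale (adjusted p = 0.0272). These 2 of 9 stood beside 9.93% of all genes (2.91% higher, 7.02% lower). They were also the 2 whose groups did not overlap, an arrangement seen in 14.6% of all genes for higher, 18.3% for lower and 32.9% for either. The other members lay between -0.30 ± 0.13 (Spry2) and 0.16 ± 0.14 (Ier5), with overlapping groups and adjusted p from 0.158 to 0.97. The Dusp1 call was lost without BDL 1 (0.999, adjusted p = 0.0679), BDL 3 (adjusted p = 0.0700) or AAV-VEGFC 3 (adjusted p = 0.0523) and on the 6 libraries alone (adjusted p = 0.136). The Spry4 call was lost without any 1 BDL library or AAV-VEGFC 3 (adjusted p from 0.0652 to 0.0835) and on the 6 libraries alone (adjusted p = 0.134).

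The direct comparison of AAV-VEGFC with AAV-GFP set the 2 vector groups, as labelled, side by side. Counts of the rat gene Vegfc did not part them: it was 3.65, 2.83 and 3.52 CPM with AAV-GFP and 2.65, 3.29 and 3.85 with AAV-VEGFC (-0.03 ± 0.21, adjusted p = 0.992). It was 2.31, 2.36 and 2.56 CPM in sham and 1.95, 2.44 and 1.51 in BDL, below all 6 vector libraries. The labels do not say whether RNA from the vector would be counted in this row, so the delivery of VEGFC was not checked by these counts. Of the 9 members 0 passed by edgeR, DESeq2 or limma voom, and 0.00778% of all genes passed by edgeR. The count of all genes depended on the libraries kept. It was far higher in the fit without sham 2, AAV-GFP 1 and AAV-VEGFC 1 together, as given in the closing section. Dusp1 (0.71 ± 0.29, 95% interval 0.09 to 1.34) and Ier5 (0.34 ± 0.14, 0.03 to 0.66) were the 2 with an unadjusted p under 0.05, against 4.37% of all genes, and both had an adjusted p of 0.948. No member parted these groups without overlap, against 6.06% of all genes (3.29% higher, 2.77% lower). For Dusp1 and Ier5 the overlap came from AAV-VEGFC 1 alone (72.3 and 76.1 CPM), a library that stood apart in its markers. The highest ligated library for both genes, AAV-VEGFC 3 (148 and 108 CPM), also stood apart, in hypothalamus and pituitary markers (58.8 CPM). With 1 library left out, Dusp1 ran from 0.52 to 0.97 (lowest adjusted p by edgeR 0.0918) and Ier5 from 0.24 to 0.48 (0.0865). Neither passed in any of these fits. The intervals of the other members were -0.18 to 0.32 for Spry4, -0.23 to 0.31 for Spred1, -0.31 to 0.27 for Spry2, -0.50 to 0.49 for Spry1, -0.52 to 0.28 for Dusp6, -0.52 to 0.43 for Dusp4 and -0.97 to 0.58 for Dusp5. They leave room for a difference of either sign. The Dusp1 rise against BDL with AAV-VEGFC and the smaller value with AAV-GFP (0.54 ± 0.29, adjusted p = 0.325) are therefore not shown to differ.

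**Figure D3:**
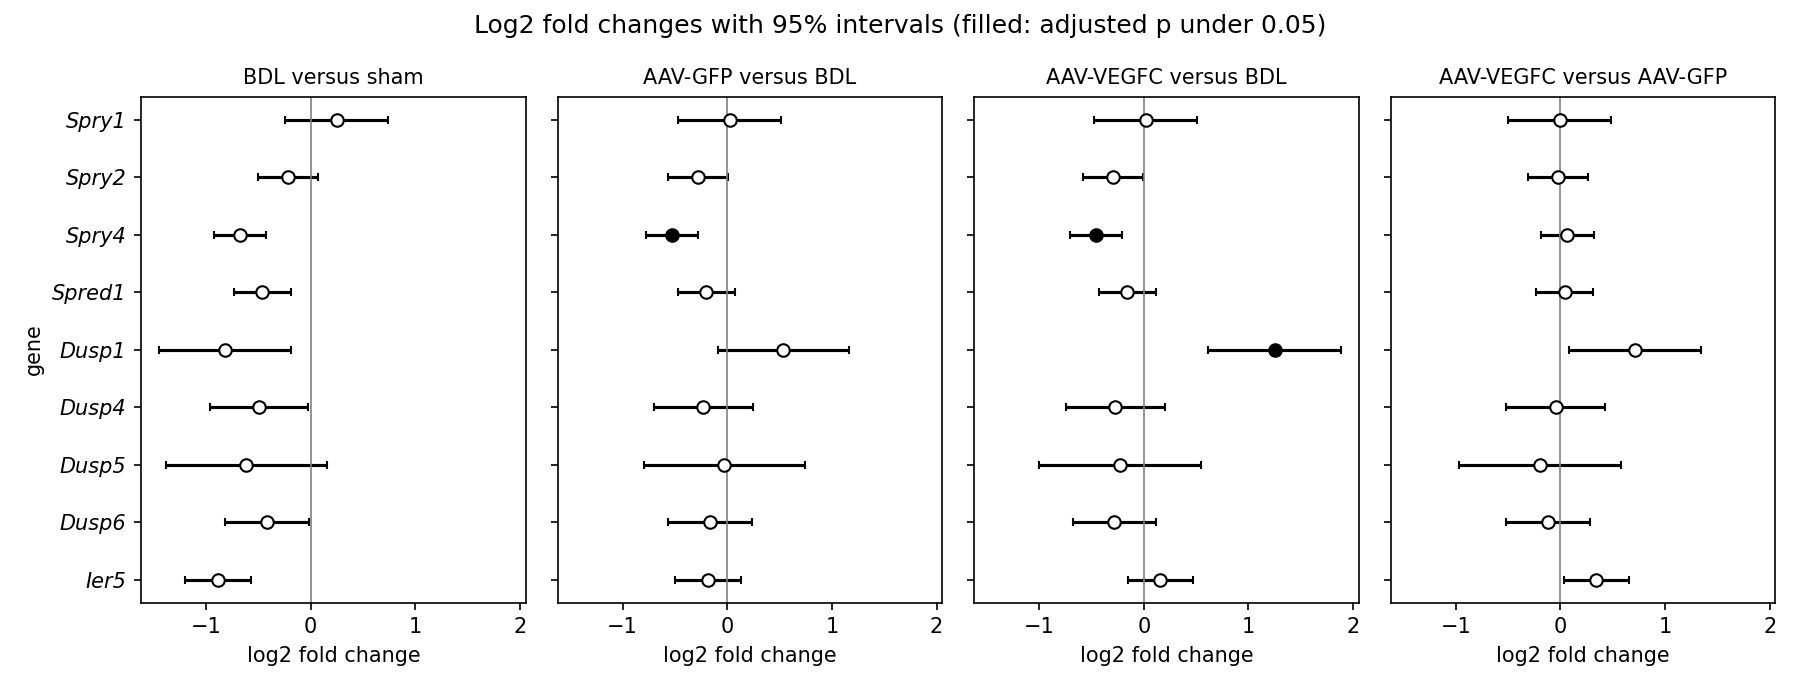
Log2 fold change (x axis) of the 9 genes (y axis) in 4 comparisons, with points for the edgeR estimate, bars for its 95% interval, and filled points for an adjusted p under 0.05. The filled points are Spry4 in both vector groups against BDL (-0.53 and -0.46) and Dusp1 with AAV-VEGFC against BDL (1.25).

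Against sham more members passed in the vector groups than in vector-free BDL, though not every member lay farther from sham: Ier5 with AAV-VEGFC and Dusp1 in both vector groups had means nearer to sham than BDL had. The adjusted p depends on how many genes pass in all, so these counts met unlike cutoffs. By edgeR, Spred1 in BDL did not pass at an unadjusted p of 0.00315, while Dusp4 with AAV-GFP passed at 0.00597. The counts alone therefore do not show a further fall with vector. With AAV-GFP 5 of 9 fell (8.33% of all genes were lower, 3.95% higher and 12.3% either): Spry4 (-1.198 ± 0.11, adjusted p = 0.000108), Ier5 (-1.07 ± 0.14, adjusted p = 0.000914), Spred1 (-0.66 ± 0.12, adjusted p = 0.0062), Spry2 (-0.49 ± 0.13, adjusted p = 0.0322) and Dusp4 (-0.72 ± 0.21, adjusted p = 0.0491). Dusp6 was at -0.58 ± 0.18 (adjusted p = 0.0599). With AAV-VEGFC 6 of 9 fell (10.6% of all genes were lower, 7.98% higher and 18.6% either): Spry4 (-1.13 ± 0.11, adjusted p = 0.000147), Ier5 (-0.73 ± 0.14, adjusted p = 0.00638), Spred1 (-0.62 ± 0.12, adjusted p = 0.00686), Spry2 (-0.51 ± 0.13, adjusted p = 0.0223), Dusp6 (-0.70 ± 0.18, adjusted p = 0.0239) and Dusp4 (-0.77 ± 0.21, adjusted p = 0.0314). Dusp5 was at -0.64 ± 0.35 and -0.84 ± 0.35 and did not pass in either. Dusp1 and Spry1 did not pass either, with Dusp1 at -0.29 ± 0.29 for AAV-GFP and 0.43 ± 0.28 for AAV-VEGFC, and Spry1 at 0.27 ± 0.23 and 0.26 ± 0.23. The groups did not overlap for 7 lower members and 1 higher with AAV-GFP, against 23.9%, 23.7% and, for either, 47.7% of all genes. With AAV-VEGFC they did not for 7 lower and 0 higher, against 20.2%, 18.9% and 39.1%. Both comparisons use the same sham libraries and are not independent.

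Spry4, Ier5 and Spred1 passed against sham in both vector groups under each of the 14 alternatives run for each comparison (highest adjusted p 0.0479, for Spred1 with AAV-VEGFC on the 6 libraries alone). The other calls against sham were less firm. Spry2 with AAV-GFP was lost without any 1 of the 6 libraries compared (adjusted p from 0.0614 to 0.112), and with AAV-VEGFC without sham 1 or sham 2 (0.0751 and 0.0636). Dusp4 with AAV-GFP was lost without any of these but AAV-GFP 2 (up to 0.148), and with AAV-VEGFC without any but AAV-VEGFC 2 (up to 0.0983). Dusp6 with AAV-VEGFC was lost without any 1 sham library or AAV-VEGFC 3 (0.0528 to 0.0707).

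Ribosomal RNA and markers of several cell types differed between the same groups. Rn18s, an 18S ribosomal RNA, was 1357 to 1671 CPM in sham, 1786 to 2989 in BDL, 4245 to 11510 with AAV-GFP and 7616 to 11883 with AAV-VEGFC. The summed level of 6 endothelial markers (of 7 listed) was 210 to 245 CPM in sham, 246 to 335 in BDL, 388 to 427 with AAV-GFP and 412 to 447 with AAV-VEGFC. Of these, 5 of 6 rose against sham in both vector groups, led by Cldn5, a tight junction protein. The 5 red-cell markers summed to 117 to 158 CPM in sham, 433 to 863 in BDL, 816 to 906 with AAV-GFP and 947 to 1319 with AAV-VEGFC. All 5 rose in BDL and in both vector groups against sham. Markers of oligodendrocyte precursors summed to 444 to 475 CPM in sham, 466 to 537 in BDL, 524 to 612 with AAV-GFP and 549 to 558 with AAV-VEGFC, and 2 of 6 (Olig1 and Olig2) rose against sham in both vector groups. The list did not move as 1. Mean CPM in sham, AAV-GFP and AAV-VEGFC was 89.1, 83.4 and 83.1 for Sox10 and 23.3, 22.9 and 22.5 for Gpr17. For Cspg4 it was 42.4, 43.0 and 41.5, and for Pdgfra 113, 139 and 125. Microglia markers summed to 284 to 316 CPM in sham, 297 to 357 in BDL, 348 to 495 with AAV-GFP and 331 to 500 with AAV-VEGFC. The upper ends were AAV-GFP 1 and AAV-VEGFC 1, and the other vector libraries lay between 331 and 352 CPM. Of the microglia markers 1 of 6 (Tmem119) rose with AAV-VEGFC against sham. Of all genes 0.0934% were higher against sham in BDL, 3.95% with AAV-GFP and 7.98% with AAV-VEGFC. Of 6 astrocyte and 6 oligodendrocyte markers 0 passed against sham in any ligated group. The 8 neuron markers summed to 6649 to 7018 CPM in sham, 6129 to 6333 in BDL, 6240 to 7583 with AAV-GFP and 4859 to 7430 with AAV-VEGFC, and 0 of 8 passed in any comparison. No marker of these cell types was at 0 in any library. Their part in the members' differences was not tested. Without Rn18s, Rn45s and the 20 most abundant genes, a fit added once the Rn18s levels had been seen, the number of members past the threshold was the same in each of the 6 comparisons. This fit left out 21 genes and scarcely moved the median log2 fold change of all genes (0.00825 to 0.0084 in BDL against sham). It therefore could not test the part of RNA composition or of cell types.

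The rest of the pathway was followed through lists of genes ordered by role. Of 19 tested ligands, 0 passed in BDL against sham, where Pdgfb had the smallest p (-0.33 ± 0.10, adjusted p = 0.503). Vegfa, the main vascular growth factor, fell against BDL with AAV-GFP (-0.55 ± 0.13, adjusted p = 0.0287) and with AAV-VEGFC (-0.59 ± 0.13, adjusted p = 0.0155), as the 1 ligand in each. Against sham 2 ligands fell with AAV-GFP (Vegfa and Pdgfb) and 3 with AAV-VEGFC, the third being Bdnf, the activity-regulated neurotrophin (-0.82 ± 0.26, adjusted p = 0.0472). No ligand rose in these comparisons, and 0 passed in AAV-VEGFC against AAV-GFP. Of 20 receptor genes, 0 passed in BDL against sham, where Kdr, the main VEGF receptor of endothelium, was at -0.46 ± 0.16 (adjusted p = 0.671). Met, the receptor of hepatocyte growth factor, fell with AAV-GFP against BDL (-0.62 ± 0.16, adjusted p = 0.0438). Flt1, a VEGF receptor and endothelial marker, rose with AAV-VEGFC against BDL (0.44 ± 0.10, adjusted p = 0.0156) and against sham in both vector groups (0.52 ± 0.10 and 0.60 ± 0.10). Igf1r and Ntrk3 fell with AAV-VEGFC against sham. Between the vector groups 0 receptors passed. Of all genes 6.19% with AAV-GFP and 9.93% with AAV-VEGFC passed against BDL in either direction, and 12.3% and 18.6% against sham. The counts of ligands and receptors were near or below these shares.

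For the kinases and adaptors of the cascade the counts that passed were 0 or near the share of all genes. Of 26 tested genes 0 passed in BDL against sham, in either vector group against BDL, or between the vector groups. With AAV-GFP against sham 2 rose and 2 fell, where 12.3% of all genes passed, among them Rps6ka3, a kinase downstream of ERK (-0.58 ± 0.13, adjusted p = 0.0159), and Map2k2, which codes for a MEK kinase (0.23 ± 0.06, adjusted p = 0.0295). With AAV-VEGFC against sham 1 rose and 3 fell, where 18.6% of all genes passed, led by Rps6ka3 (-0.60 ± 0.13) and the Ras exchange factors Sos2 (-0.35 ± 0.08) and Sos1 (-0.45 ± 0.13). Of 11 genes of the JNK and p38 pathways, whose kinases Dusp1 also acts on, 1 fell with AAV-GFP against BDL and 3 with AAV-VEGFC. Of all genes 5.2% and 7.02% were lower in these comparisons, and 8.33% and 10.6% in those against sham. The p38 kinase genes Mapk11 (-0.80 ± 0.10, adjusted p = 0.00049, with AAV-GFP against sham) and Mapk14 (-0.38 ± 0.07, adjusted p = 0.0051, with AAV-VEGFC against sham) were the 2 that fell in both vector groups against sham.

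A list of other feedback and negative regulators of the pathway, which also held early genes and further Dusp genes, was counted in the same way. Of 23 tested, 0 passed in BDL against sham, where Trib1, a pseudokinase that binds MEK, had the smallest p (9.5 ± 0.704 CPM against 17.1 ± 2.68, adjusted p = 0.275). With AAV-GFP against BDL, where 6.19% of all genes passed, 3 fell and 0 rose: Rasa2, a GTPase-activating protein of Ras (-0.68 ± 0.12, adjusted p = 0.00514), Cblb, a ubiquitin ligase of receptors (-0.70 ± 0.13, adjusted p = 0.0103), and Spry3 (-1.03 ± 0.27, adjusted p = 0.0487). With AAV-VEGFC against BDL, where 9.93% of all genes passed, 4 fell and 1 rose, the riser being the early gene Ier2 (0.82 ± 0.21, adjusted p = 0.0326). Against sham 6 fell and 1 rose with AAV-GFP (12.3% of all genes passed), led by Rasa2 (-0.88 ± 0.12) and Trib1 (-1.41 ± 0.20, adjusted p = 0.00142). With AAV-VEGFC 7 fell and 2 rose (18.6% of all genes passed), and Ier3, an ERK-induced early gene, was among the rises (1.23 ± 0.23, adjusted p = 0.0048). Between the vector groups 0 passed, and Ier2 had the smallest p (18.7 ± 3.47 CPM with AAV-VEGFC and 11.5 ± 1.48 with AAV-GFP, adjusted p = 0.948).

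Of 33 transcription factors and early genes that ERK can induce, 1 fell and 0 rose in BDL against sham, Egr3 (-0.78 ± 0.09, adjusted p = 0.00228). The list's median was -0.39, against 0.01 for all genes. Of all genes 0.109% passed there, 12.3% with AAV-GFP and 18.6% with AAV-VEGFC against sham, and 6.19% and 9.93% against BDL. Against sham 11 fell and 0 rose with AAV-GFP, led by Arc, Egr3 and Klf10 (-1.21 ± 0.17, adjusted p = 0.00124), a repressor of the Krüppel-like family. With AAV-VEGFC 10 fell and 3 rose against sham, and the 3 rises were Klf2 and Klf4, shear-responsive factors of endothelium, and Epha2, an ephrin receptor. Against BDL the list split with AAV-VEGFC, 5 higher and 1 lower: Klf4 (1.46 ± 0.24, adjusted p = 0.00306) and Klf2 (1.199 ± 0.20, adjusted p = 0.00395) led the rises, which also held Cyr61, Epha2 and Btg2, and Arc was the fall (-1.19 ± 0.24, adjusted p = 0.0112). With AAV-GFP against BDL Klf4 rose (0.89 ± 0.23, adjusted p = 0.0477) while Arc and Egr2 fell. The direct comparison of the vector groups had 0 of 33 past the threshold and a list median of 0.33, against 0.01 for all genes. Glucocorticoid targets, of which Dusp1 is one outside this list of 12, rose in the vector groups only in part. In BDL against sham 0 passed. Against BDL 3 rose with AAV-GFP (Nfkbia at 1.22 ± 0.19, Ddit4 and Sgk1) and 4 with AAV-VEGFC, where Tsc22d3, a classical target, was the added one (0.77 ± 0.19, adjusted p = 0.0276). Against sham 4 and 6 rose, 0 fell, and 0 passed between the vector groups. Of all genes 0.988% with AAV-GFP and 2.91% with AAV-VEGFC were higher against BDL, and 3.95% and 7.98% against sham.

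The genes whose libraries tracked each member most closely were found by the root-mean-square difference of centred log2 CPM over the 12 libraries, among 11537 genes of at least 1 CPM on average. This is a description of likeness in these libraries, which share groups, depth and composition. For Spry4, whose own spread was 0.49 log2 units, the nearest were Ago3 and Ccnf (0.17 each) and Ccdc50 (0.19). For Ier5 (spread 0.44) they were Midn (0.17), Plk3 (0.18) and Arl4d (0.19), and Midn was also among the nearest of Spred1 (0.11 against a spread of 0.30), with Stk40 and Bcor (0.11 each). Dusp1 (spread 0.57) was nearest to Dll4, a Notch ligand of endothelium (0.20), Tcap (0.23) and Btg2, an early antiproliferative gene (0.28). Dusp5 (spread 0.55) was nearest to Nr4a3, an activity-induced nuclear receptor (0.19), Bdnf (0.24) and St18 (0.28). Like Dusp5, Nr4a3 was lowest in AAV-GFP 1 (21.8 CPM) and next lowest in AAV-VEGFC 3 (27.0 CPM), against 73.7 to 84.6 CPM in sham. As Nr4a3 was picked for its likeness to Dusp5 over these libraries, this adds no separate evidence. Dusp4 (spread 0.39) was nearest to Dnajb5, Pcsk1 (0.16 each) and Agpat9 (0.17), and Dusp6 (0.34) to Gfod1 (0.15), Nptx2, a neuronal pentraxin (0.17), and Ahsa2 (0.18). Spry2 (0.26) was nearest to Arl6ip6 (0.09), Spata6l (0.10) and Pcsk7 (0.11), and Spry1 (0.21), at few reads, to Ptprr (0.08), Pcbp3 and Tubg2 (0.10 each). Within the 9, Spry2 and Dusp6 were each other's nearest (0.18), Dusp4 was nearest to Dusp6 (0.20), Spry4 to Spred1 (0.24), and Dusp1 was far from its nearest, Ier5 (0.53).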

How the data were processed

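Trizol RNA from frozen brain went into Illumina TruSeq libraries, per the labels' protocols. The submitters' processing notes name Trimmomatic 0.36, FastQC, HISAT2, featureCounts and the build rn6. Settings, annotation and strandedness were not stated, so overlapping or antisense genes cannot be told apart. Values in the table the authors deposited are whole-number counts for each gene symbol without normalization. Of 12 deposited tables, the 1 that holds all 12 libraries was used. In it 26 rows carry dates in place of symbols and name no gene here. Groups came from sample titles. The series text gives 3 rats per group, and no label ties a library to an animal. Chi-square per degree of freedom between libraries of a group was 11.6 to 227, so none were repeat reads of the same library. This does not show that the libraries came from different rats.

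With edgeR 4.0.16 in R 4.3.3, genes were kept by filterByExpr, TMM factors computed and 1 quasi-likelihood model with a mean per group fitted. All 6 pairs of groups were tested. SE came from the fold change and the F statistic, and log2 CPM used a prior count of 2. The scripts were tested on simulated data. Alternatives were DESeq2 1.42.0, its size factors in edgeR, limma 3.58.1 voom with quality weights, no filter, the compared groups alone, the replicate block, leaving out each library and leaving out sham 2, AAV-GFP 1 and AAV-VEGFC 1. The members, lists and alternatives were chosen with earlier results of these data known. All members are named. Of each list the text names up to 3 passing genes of smallest p per comparison, or the 1 of smallest p where none passed, in part. The values of 1 list gene are not reported here. Others (Cyr61, Epha2 and Btg2 with AAV-VEGFC against BDL, Klf2, Klf4 and Epha2 with AAV-VEGFC against sham, Cldn5, Olig1, Olig2, Tmem119, Oxt, Avp, Gh1, Prl) were named after their values were seen. Figures were drawn with matplotlib 3.10.9.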

Additional observations from a re-analysis of the deposited data

How the results depend on the processing

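Members past the threshold numbered 0, 1, 0, 2, 5 and 6 in BDL against sham, AAV-GFP against BDL, AAV-VEGFC against AAV-GFP, AAV-VEGFC against BDL, and AAV-GFP and AAV-VEGFC against sham. In BDL against sham they were 2 with DESeq2, 4 with voom, 1 with no filter, 4 with the compared groups alone and 2 in the fit without sham 2, AAV-GFP 1 and AAV-VEGFC 1, which kept AAV-VEGFC 3 and is called the 9-library fit below. In AAV-GFP against BDL they were 3 with voom, and in AAV-VEGFC against BDL 0 with the compared groups alone. With 1 library left out they ranged, in that order, 0 to 0, 0 to 1, 0 to 0, 0 to 2, 3 to 4 and 3 to 6. The replicate numbers did not pair the libraries (correlations of deviations from -0.13 to 0.07). With the replicate number as a block the counts were 0, 1, 0, 1, 4 and 6, ending the calls of Spry4 in AAV-VEGFC against BDL (-0.46, adjusted p = 0.0502) and Dusp4 in AAV-GFP against sham (-0.75, adjusted p = 0.0613). The causes of these changes were not tested, and some of the fits also held fewer libraries.

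All genes past the threshold numbered 14, 795, 1, 1276, 1578 and 2394. DESeq2 gave 108, 1485, 10, 2362 and 2396 in the first 5, voom 347 in the first, 4687 in the second, 2488 in the fourth and 6103 in the fifth, the compared groups alone 332, 2023, 0, 330, 3756 and 702, and the 9-library fit 209, 3646, 1193, 3123 and 4428 in the first 5. The block gave 0 in the third. With 1 library left out the ranges were 12 to 17, 386 to 859, 0 to 22, 586 to 2284, 625 to 1490 and 983 to 3205.

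No called member changed sign under any alternative. Values near 0 did. In AAV-GFP against BDL, Spry1 (0.02) was -0.045 with voom and -0.043 in the 9-library fit, Dusp5 (-0.03) was 0.17 and 0.33, and Dusp6 (-0.16) was 0.00024 in the latter. In AAV-VEGFC against AAV-GFP, Spry1 (-0.01) was 0.0019 with DESeq2, 0.24 with voom and 0.27 in the 9-library fit. With 1 library left out, the ranges that crossed 0 were, in AAV-GFP against BDL, -0.043 to 0.076 for Spry1, -0.39 to 0.33 for Dusp5 and -0.29 to 0.00031 for Dusp6. In AAV-VEGFC against BDL the range was -0.11 to 0.22 for Spry1. In AAV-VEGFC against AAV-GFP the ranges were -0.14 to 0.20 for Spry1, -0.13 to 0.12 for Spry2, -0.065 to 0.14 for Spry4, -0.12 to 0.13 for Spred1, -0.31 to 0.12 for Dusp4, -0.57 to 0.16 for Dusp5 and -0.29 to 0.027 for Dusp6. Depth limits Spry1 most, with 48 to 100 reads per library.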
